A study of Mus musculus with 4 samples.

Results

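The genes described here encode co-inhibitory receptors of T cells, the costimulatory receptor ICOS, the PD-1 ligand PD-L1 and the endothelial protein C receptor (Procr). They were listed by name as Lag3, Pdcd1, Havcr2, Tigit, Ctla4, Icos, Cd160, Btla, Procr and Cd274, and every probe set that the platform annotation assigns to a listed gene alone was taken. A probe set is a group of short array probes for a transcript. This gave 14 probe sets for 9 of the 10 genes, out of 18193 genes with such a probe set and 45101 probe sets in all. Tigit had no probe set assigned to it alone, so no expression value of it is given. The list was drawn up with the KO against WT differences of these arrays in view, so the values of its members are a description and carry no test.

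The RNA came from T cells of WT and KO mice, with 2 single-colour Affymetrix arrays per genotype. Naive T cells had been taken from spleen and kept for 3 days in conditions that induce regulatory T (Treg) cells, a lineage that restrains immune responses. The labels name neither the gene removed in the KO nor the strain, age or culture agents, so its level was not checked. The labels give every array a numbered mouse source and do not say whether mice were pooled, so the spread between arrays may be partly technical. Differences of 2-fold or more occurred at 4.85% of tested probe sets between the WT arrays and at 5.49% between the KO arrays. T cell markers were present on every array, and of 7 tested 3 rose and 1 fell in KO cells, Cd3g by the most, from 8978 and 8666 to 21527 and 20722 (log2 difference 1.26). Of 3 tested Treg cell markers 1 rose and 2 fell. The Treg lineage factor gene Foxp3 fell from 2177 and 2033 on the WT arrays to 947 and 1101 on the KO arrays (adjusted p = 0.00123, limma), a call lost when the variance model ignored signal intensity. Ikzf2 fell as well (-0.73 ± 0.15). Il2ra went the other way, from 5666 and 4854 on the WT arrays to 9579 and 11435 on the KO arrays (0.99 ± 0.12). In such bulk RNA, a change in the share of cells that make a transcript and a change in its amount per cell cannot be told apart.

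Co-inhibitory receptors are surface proteins that dampen a T cell when they meet their ligands. CTLA-4 takes the ligands of the costimulatory receptor CD28, PD-1 (Pdcd1) binds PD-L1 (Cd274) and PD-L2 (Pdcd1lg2), and LAG-3 binds MHC class II. Tim-3 (Havcr2) is carried by effector T cells and by myeloid and mast cells, and CD160 and BTLA share the ligand HVEM (Tnfrsf14). ICOS is a costimulatory relative of CD28 and CTLA-4. The endothelial protein C receptor binds protein C on the vessel wall, and it is also made by T cells that carry several inhibitory receptors.

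The promoters of the members with the largest differences, Procr and Havcr2, and of Btla, which was lower in KO cells, are shown for comparison. Each is the stretch of 250 bases before the RefSeq transcript start in GRCm38.p6, printed 5′ to 3′ on the strand of the gene. Capitals mark matches to TGANTCA (AP-1 site) or GAAAG (BLIMP-1 core), read on both strands. The Procr stretch is chr2:155750967-155751216 (+), that of Havcr2 chr11:46454681-46454930 (+) and that of Btla chr16:45224087-45224336 (+).
Procr: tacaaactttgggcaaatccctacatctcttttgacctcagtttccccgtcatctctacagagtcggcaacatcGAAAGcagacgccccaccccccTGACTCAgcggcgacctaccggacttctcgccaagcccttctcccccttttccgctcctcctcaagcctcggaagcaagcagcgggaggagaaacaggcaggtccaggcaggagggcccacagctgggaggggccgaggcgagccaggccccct
Havcr2: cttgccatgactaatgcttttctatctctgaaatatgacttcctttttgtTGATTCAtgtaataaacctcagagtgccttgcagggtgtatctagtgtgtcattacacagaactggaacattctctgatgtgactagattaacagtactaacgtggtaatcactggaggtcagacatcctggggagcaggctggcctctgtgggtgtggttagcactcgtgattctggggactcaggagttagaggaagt
Btla: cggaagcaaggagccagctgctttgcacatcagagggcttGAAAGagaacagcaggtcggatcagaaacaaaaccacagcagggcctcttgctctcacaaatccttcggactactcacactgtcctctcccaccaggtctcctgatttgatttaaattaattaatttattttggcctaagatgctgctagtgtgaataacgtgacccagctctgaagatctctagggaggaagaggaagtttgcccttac
Promoters of 8 of the 10 listed genes were found in the RefSeq table, Tigit among them, and those of Lag3 and Icos were not. Cd160 had more than a single promoter, so the 8 genes had 9 promoters. A member was counted if any of its promoters matched, whereas the background share is per promoter. An AP-1 match was present in 2 of the 8, Procr and Havcr2, against 6.75% of the 32851 promoters of the same length. The match began 154 bases before the start in Procr and 200 bases before it in Havcr2. A GAAAG match was present in 6 of 8 members against 51.5% of promoters, and GGAAA (NFAT core), which can overlap it, in 6 of 8 against 55.6%. The MAF core TGCTGA was present in 1 of 8, Cd160, against 16.1%. These matches are letters in a short window and say nothing of binding.

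Most of the measured members stood higher in KO cells. The median log2 difference, KO minus WT, over the 9 genes was 1.66 on the log2(signal + 16) scale, against -0.026 over all 12547 tested genes. A linear fit across all probe sets in limma, with an adjusted p threshold of 0.05, called 20.3% of tested genes, 10.5% higher and 9.87% lower in KO cells. Among tested probe sets the share was 17.1%, with 7.89% higher and 9.17% lower. By that threshold 8 of the 9 members were called higher and 1, Btla, was not called. Because the list was chosen on this contrast, nothing is read from that count. The WT and KO arrays did not overlap for any of the 9 genes, Btla included, as was the case for 62.7% of tested genes. All 9 passed the filter on dim probe sets, a mean signal of 33.2, also by their WT mean alone.

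**Figure D1:**
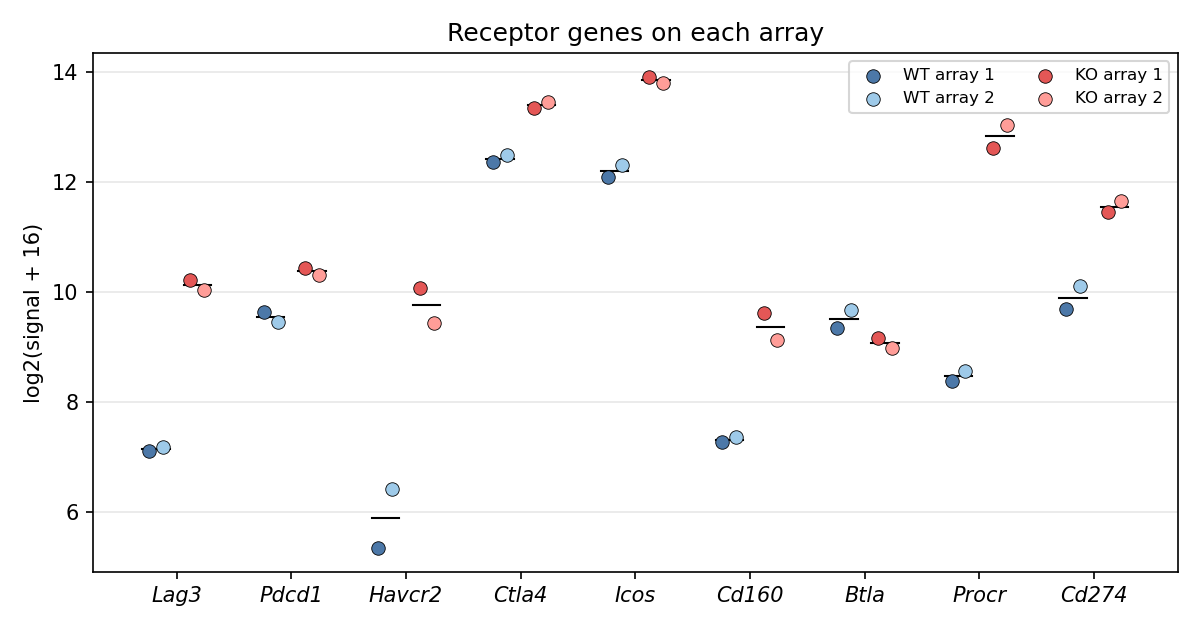
Signal of the 9 measured genes on each of the 4 arrays, as log2(signal + 16) of the brightest probe set of each gene. Points are arrays and bars are group means of 2 arrays. The KO points lie above the WT points for every gene except Btla, and the widest WT spread is that of Havcr2 (24.7 and 70.3 in signal).

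Among the receptors with the largest differences, Lag3 (probe set 1449911_at) was at 123 and 130 on the WT arrays, against 1176 and 1037 on the KO arrays. Both KO arrays were thus far above both WT arrays, which lay close together. The log2 difference was 2.97 ± 0.18 (SE), a 7.85-fold higher level in KO cells on the log2(signal + 16) scale, and 1.09% of tested genes had a larger difference in either direction. Havcr2 (1451584_at) was at 24.7 and 70.3 on the WT arrays, against 1069 and 683 on the KO arrays. Its WT signals were dim and differed by 1.08 on the log2 scale, so its difference of 3.88 ± 0.37 is the least precise of the brightest probe sets of the 9 genes. With a pseudocount of 64 in place of 16 it was 3.08, and without WT array 2 it was 4.42. Cd160, a glycolipid-anchored receptor of cytotoxic T cells and NK cells, was at 140 and 149 on the WT arrays, against 770 and 546 on the KO arrays in its brightest probe set (1420066_s_at). The log2 difference there was 2.05 ± 0.22.

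The 4 probe sets of Cd160 did not give the same size. In 1420396_at the signals were 146 and 151 on the WT arrays, against 531 and 301 on the KO arrays, a log2 difference of 1.34 ± 0.28. The other Cd160 probe sets, with signals from 6.52 to 69.4, fell under the filter and had differences of 0.61 ± 0.62 and 0.76 ± 0.42. In 1 of these, 1420067_at, the WT arrays (9.63 and 22.6) and KO arrays (69.4 and 11.0) overlapped. The brightest carries the suffix that Affymetrix gives to probe sets that can match more than a single transcript, and leaving such sets out puts Cd160 at 1.34.

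Ctla4 and Pdcd1, the receptors best known in Treg cells and in exhausted T cells, differed by less. Ctla4 (1419334_at) was at 5254 and 5779 on the WT arrays, against 10410 and 11252 on the KO arrays. That is a log2 difference of 0.97 ± 0.10, or 1.96-fold. Pdcd1 (1449835_at) was at 779 and 690 on the WT arrays, against 1378 and 1265 on the KO arrays, a log2 difference of 0.84 ± 0.14, or 1.78-fold. Neither was at an extreme of the array: 11.0% of tested genes had a larger absolute difference than Ctla4 and 14.1% a larger one than Pdcd1. With a variance model that ignores signal intensity (no intensity trend), these were the members that no longer passed, which left 6.

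Btla (1455656_at) went the other way. Its signals were 638 and 801 on the WT arrays, against 561 and 489 on the KO arrays. The log2 difference of -0.44 ± 0.17 did not pass the threshold, and 35.6% of tested genes had a larger absolute difference. The gap between the WT arrays, 0.32 on the log2 scale, was close to the size of that difference.

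Icos, the costimulatory member, had 3 probe sets that all passed the filter. The brightest (1436598_at) was at 4369 and 5085 on the WT arrays, against 15505 and 14346 on the KO arrays. In 1421930_at the signals were 3435 and 3633 against 12605 and 12065, and in 1421931_at 1267 and 1330 against 4994 and 5743. The log2 differences were 1.66 ± 0.11, 1.80 ± 0.09 and 2.03 ± 0.12, so the 3 probe sets of Icos lay closer together than those of Cd160. In the RefSeq gene order Cd28, Ctla4 and Icos are neighbours. Cd28, the main costimulatory receptor of naive T cells, was at 4207 and 4457 on the WT arrays, against 3539 and 3998 on the KO arrays and did not pass (-0.20 ± 0.11, adjusted p = 0.239, limma).

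Procr had the largest difference of the 9 genes. Its probe set (1420664_s_at) was at 320 and 365 on the WT arrays, against 6332 and 8417 on the KO arrays. The log2 difference was 4.35 ± 0.16, a 20.5-fold higher level in KO cells, and 33 of the 12547 tested genes had a larger rise. This is the only probe set of Procr and it too carries the suffix for possible matches to several transcripts, so no other probe set could be set beside it.

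Cd274, the gene of the PD-1 ligand PD-L1, was at 815 and 1089 on the WT arrays, against 2791 and 3216 on the KO arrays (1419714_at). The log2 difference was 1.65 ± 0.16, or 3.14-fold. Pdcd1lg2, the adjacent gene in the RefSeq order and that of the other PD-1 ligand, rose from 278 and 293 on the WT arrays to 1741 and 1711 on the KO arrays (2.53 ± 0.14, adjusted p = 2.42e-05, limma). Receptor and both ligand genes of the PD-1 pathway were higher in the same KO cultures, Pdcd1 by the least (0.84 ± 0.14). Since Pdcd1 and Cd274 were listed with this contrast in view, nothing is read from their joint rise.

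**Figure D2:**
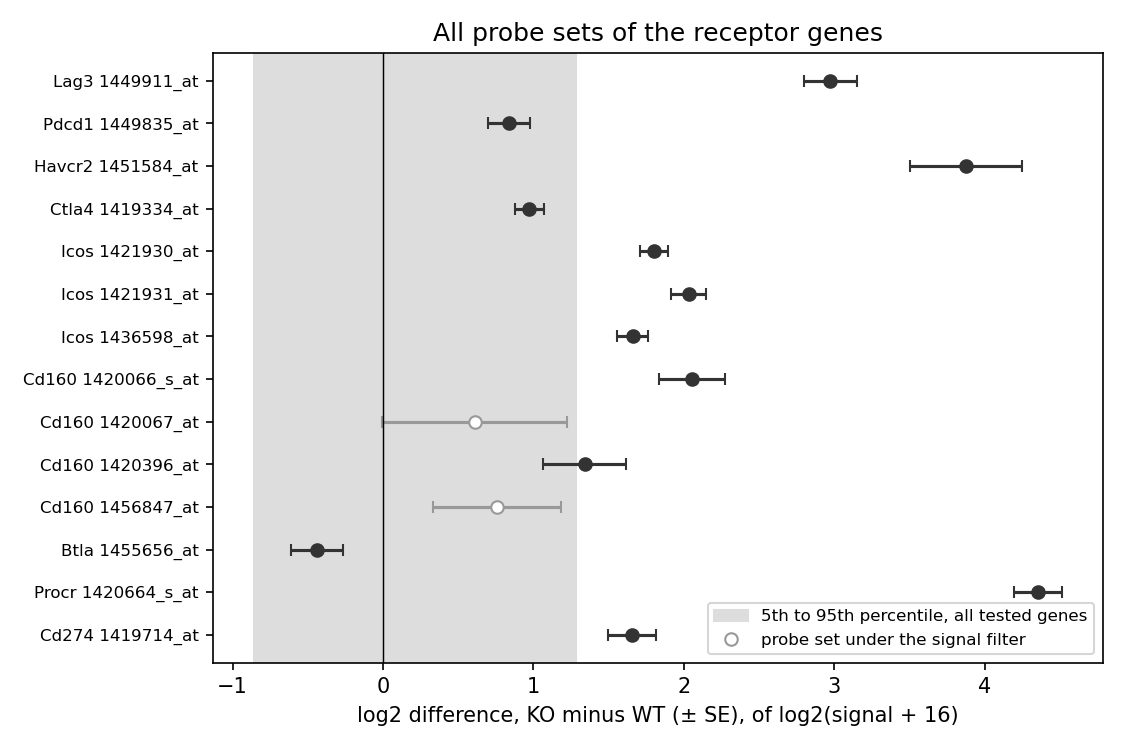
Log2 difference, KO minus WT, with its SE for all 14 probe sets of the receptor genes, from 2 arrays per genotype. The grey band spans the 5th to 95th percentile of all tested genes (-0.86 to 1.28). Lag3, Havcr2, Icos, Procr and Cd274 lie to the right of the band in every probe set, and Pdcd1, Ctla4 and Btla lie inside it.

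Outside the listed members, 28 of 81 tested genes of the receptor pathways rose and 12 fell, against 10.5% and 9.87% of all tested genes. These lists were written with earlier results of the arrays known, and 7 of their 94 genes had no probe set assigned to them alone. Of 13 tested ligand genes 4 rose and 0 fell in limma (5 and 1 at an unadjusted p under 0.05). Besides Pdcd1lg2 they were Lgals3, a galectin reported to bind LAG-3 (3.30 ± 0.17, adjusted p = 1.54e-05), Tnfsf14 (1.45 ± 0.32) and the class II gene H2-Ab1 (1.17 ± 0.20). The product of Tnfsf14 binds HVEM, which is not a listed receptor. The CD28 and CTLA-4 ligand genes were dim: Cd80 was at 50.4 and 92.8 on the WT arrays, against 69.1 and 51.3 on the KO arrays, and Cd86 was at 62.1 and 357, against 264 and 195. Neither passed in its brightest probe set, and there the WT arrays alone spanned the KO values of both genes. Tnfrsf14, the ligand of BTLA and CD160, did not pass either (-0.28 ± 0.20). The calls of Tnfsf14 and H2-Ab1 were lost without the intensity trend, and that of Tnfsf14 also without KO array 2. Averaged over their probe sets, H2-Ab1 was at 1.77 and Cd86 at 1.19, against 0.51 in the brightest probe set of Cd86.

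Of 12 tested related receptors 7 rose, 1 fell and 4 did not pass. Pdpn, the gene of podoplanin, another surface protein of T cells with several inhibitory receptors, rose from 25.4 and 44.3 to 683 and 594 (3.71 ± 0.27, adjusted p = 8.42e-05, limma). Cd200r1, an inhibitory receptor, rose from 153 and 136 to 979 and 808 (2.49 ± 0.19), and Cd244a, a SLAM family receptor, from 88.1 and 105 to 750 and 427 (2.38 ± 0.28). Klrg1, an inhibitory lectin receptor, rose by 1.99 ± 0.33. Cd5, a brake on T cell receptor signalling, fell from 5991 and 5969 to 3377 and 3375 (-0.82 ± 0.09, adjusted p = 0.00079, limma). Cd226, the activating counterpart of TIGIT, fell under the filter with signals of 4.74 to 42.5. Without the intensity trend 4 of the related receptors were called higher and 0 lower, and with a pseudocount of 64 Pdpn was at 2.83 and Klrg1 at 1.38.

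Of 24 tested signalling and trafficking partners of these receptors, 2 rose, 5 fell and 17 did not pass, against 10.5% higher and 9.87% lower over all tested genes. Their median log2 difference was -0.05. The adaptor gene Grb2 rose from 1658 and 1752 to 3666 and 3713 (1.11 ± 0.11, adjusted p = 0.000319, limma). The kinase gene Fyn (-0.70 ± 0.12), Cmtm4, whose product stabilises PD-L1 (-0.63 ± 0.18), and the kinase gene Csk (-0.48 ± 0.11) fell. Ptpn6 and Ptpn11, the phosphatases SHP-1 and SHP-2 recruited by several of the receptors, were at -0.22 ± 0.10 and -0.13 ± 0.12 and did not pass. Leaving out WT array 1 or WT array 2 reduced the genes that fell to 1, as did centring each array on its median, and without the intensity trend 0 fell. The call of Cmtm4 was lost when any of the 4 arrays was left out, and that of Csk without either WT array or KO array 2.

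Transcriptional regulators linked to these receptors moved in both directions. Of 26 tested genes in the list, which also holds Il10 and the receptor gene Il27ra, 14 rose, 5 fell and 7 did not pass. Maf rose from 261 and 386 on the WT arrays to 5092 and 5746 on the KO arrays (4.02 ± 0.18, adjusted p = 9.64e-06), and Prdm1, the gene of BLIMP-1, from 149 and 240 to 1259 and 1003 (2.47 ± 0.24, adjusted p = 0.00031, limma). Both factors are known to act on genes of inhibitory receptors and on Il10, a cytokine gene placed in the same list, which was at 43.2 and 82.4 and rose to 4861 and 4926. Ahr (2.53 ± 0.20) and Tox2 (2.51 ± 0.20) rose as well. The genes that fell were Nr4a3 (-1.10 ± 0.12), Nr4a1 (-1.07 ± 0.13), Nfatc1 (-0.89 ± 0.11), Tox (-0.85 ± 0.21) and Egr2 (-0.65 ± 0.14). Other factors that act after T cell receptor stimulation rose, among them Irf4 (1.48 ± 0.12), Batf (1.41 ± 0.18) and Nfatc2 (0.74 ± 0.10), and Nr4a2 did not pass (0.07 ± 0.34). Without the intensity trend 9 genes of this list were called higher and 1, Nr4a3, lower, Batf and Nfatc2 being among the calls lost. The calls of Tox and Egr2 were lost without either WT array, and that of Tox also without KO array 1. Averaging over the probe sets of each gene also ended the calls of Nfatc1, Nfatc2 and Egr2. With a pseudocount of 64 the log2 difference of Il10, 6.01, was 5.31.

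The protein C pathway around Procr was mostly dim in these cells. Of 6 tested genes F2r, a thrombin receptor that activated protein C also cleaves, rose from 4914 and 4962 to 12930 and 12883 (1.38 ± 0.09, adjusted p = 4.02e-05, limma). Serpinc1, the gene of antithrombin, fell from 216 and 229 to 33.7 and 32.6 (-2.28 ± 0.29, adjusted p = 0.00131, limma). Thbd, which works with the receptor to activate protein C, was at 40.3 to 66.6 on the 4 arrays and did not pass, and Proc itself was under the filter. With a pseudocount of 64 Serpinc1 was at -1.56. Its KO mean was just under the filter, so it passed only through the WT arrays, and a stricter filter removed it.

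**Figure D3:**
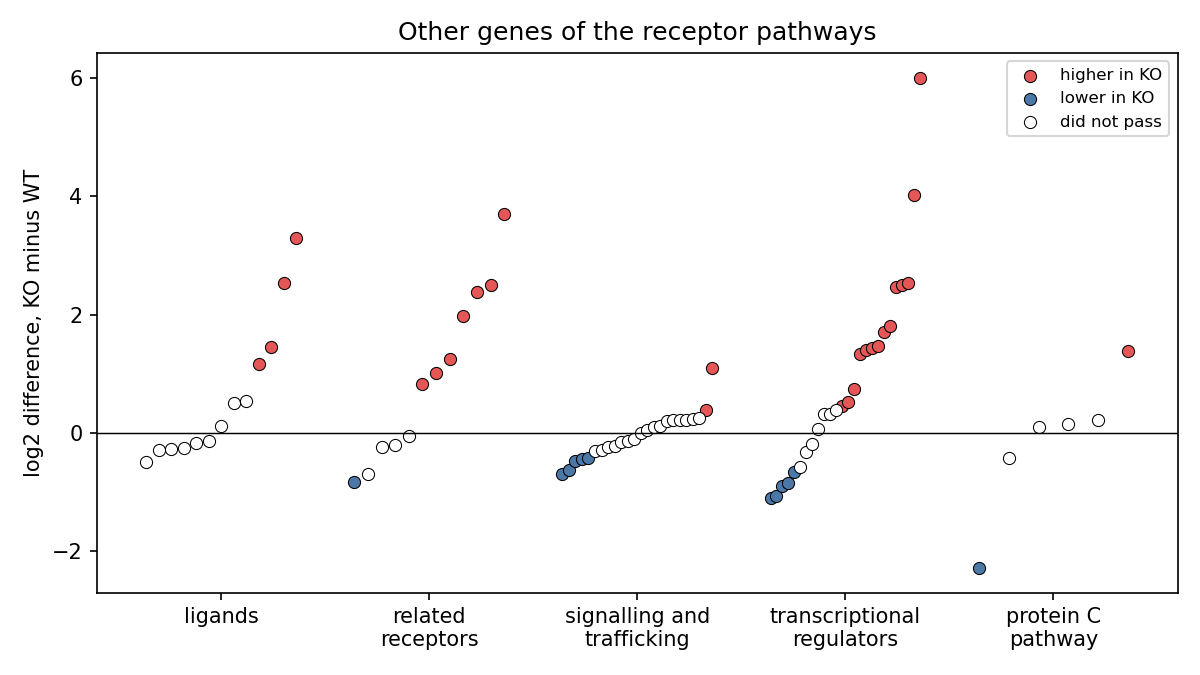
Log2 difference, KO minus WT, of the tested genes in 5 lists of pathway genes, ordered by size within each list. Red and blue points passed an adjusted p of 0.05 in limma as higher or lower in KO cells, and open points did not pass. The regulator list reaches from -1.10 (Nr4a3) to 4.02 (Maf) and, for the cytokine gene Il10 placed in it, 6.01. Most signalling partners lie close to 0.

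Several of the members are also made by other cells, and markers of such cells moved with the genotype. Of 9 mast cell or basophil markers 7 rose, among them Cpa3 (6.09 ± 0.24, adjusted p = 5.1e-06, and 4.94 with a pseudocount of 64). For 5 of these 7, Cpa3 included, the WT mean was under the filter, so they passed it only through the KO arrays. The summed signal of the list was 901 and 1098 on the WT arrays, against 14745 and 9392 on the KO arrays. Of 7 tested macrophage or monocyte markers 6 rose, among them Fcgr3 (3.48 ± 0.32), with sums of 530 and 825 against 4063 and 2914. All 3 tested NK cell markers rose, among them Klrd1 (3.31 ± 0.21), with sums of 292 and 496 against 4286 and 2635, and so did both CD8 T cell markers, Cd8a by 1.78 ± 0.18. None of the 3 tested B cell markers, Cd79a being farthest from 0 (0.57 ± 0.44), or of the 3 tested dendritic cell markers, with Itgax farthest (0.70 ± 0.33), passed in limma, and 0 of either list had an unadjusted p under 0.05. Of 2 tested endothelial markers Pecam1 rose (0.79 ± 0.20), a call lost when KO array 1 or either WT array was left out, while Cdh5, Tek and Vwf were under the filter. Without the intensity trend 11 markers of other cell types were called higher in place of 19: 6 of mast cells or basophils, 2 of macrophages or monocytes, 1 of NK cells and 2 of CD8 T cells. No marker was listed at 0. The part of these cells in the values of Havcr2, Cd160, Cd274, Procr and Lag3 was not tested.

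The KO arrays differed from each other in these markers and in the members. KO array 1 exceeded KO array 2 for 8 of 9 mast cell or basophil markers, 6 of 7 macrophage or monocyte markers and all 3 NK cell markers, but for 3 of 7 T cell markers. It also did so for all 3 tested B cell markers and 10 of 13 ligand genes, and for 7 of 26 genes in the regulator list. Havcr2 and Cd160 were also higher on KO array 1, by 0.63 and 0.48 on the log2 scale. Lag3, Btla, Pdcd1 and Icos were higher on it by 0.11 to 0.19, and Procr (-0.41), Cd274 (-0.20) and Ctla4 (-0.11) were lower on it. These values are of the brightest probe sets. The other Icos probe sets did not agree, 1421930_at being higher on KO array 1 by 0.06 and 1421931_at lower (-0.20). Differences between a pair of arrays have no error of their own and were not tested. Among the WT arrays, array 2 had the higher signal in 8 of the 9 members, and Ms4a1 (62.4 and 344), Flt3 (39.2 and 198), Tyrobp (20.9 and 198) and Cd86 were also much higher on it. Other markers were lower on it, among them Csf1r (179 and 111) and Cma1 (43.7 and 6.08). WT array 2 was the higher for 6 of 9 mast cell or basophil markers, 6 of 7 macrophage or monocyte markers and 1 of 7 T cell markers. It was also the higher for 19 of 26 genes in the regulator list and 8 of 12 related receptors. For ligand genes this was 7 of 13 and for signalling and trafficking partners 10 of 24. The share over all genes was not counted.

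**Figure D4:**
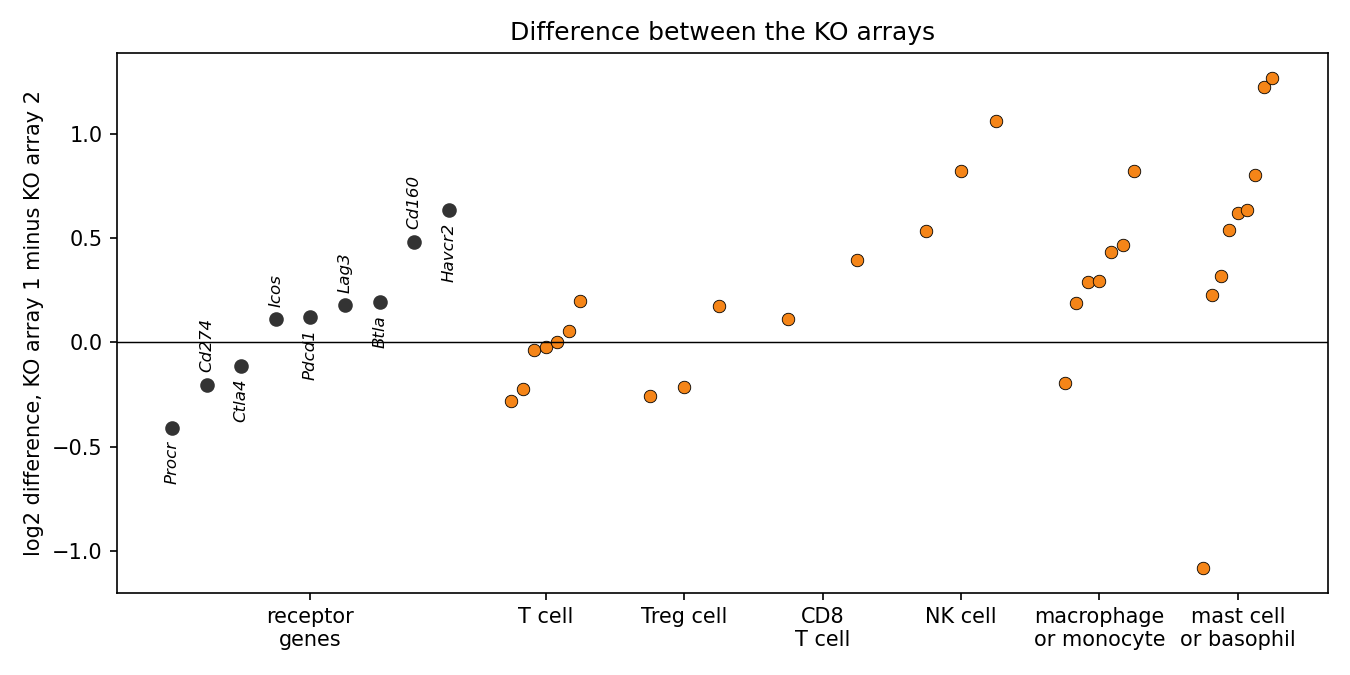
Log2 difference between KO array 1 and KO array 2 for the 9 receptor genes and for the tested markers of 6 cell types, 1 point per gene, without error since each is a difference of 2 arrays. Havcr2 (0.63) and Cd160 (0.48) lie highest among the receptor genes and Procr (-0.41) lowest, and 8 of 9 mast cell or basophil markers lie above 0.

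The genes whose profile over the 4 arrays lay nearest to each member were found by Euclidean distance of log2 values centred on the mean of each gene. Nearest to Havcr2 were the chemokine gene Cxcl3 (79.8 and 251 on the WT arrays, 3081 and 2023 on the KO arrays) and the stefin gene Stfa3 (distances 0.30 and 0.31). Cd160 was closest to Lat2, an adaptor of mast cells, NK cells and B cells, and to the lamin gene Lmna (0.12 and 0.12). Procr had Ttc39c, at 144 and 186 on the WT arrays, against 3034 and 3594 on the KO arrays, and Slc15a1 beside it (0.22 and 0.30). The neighbours of Lag3 were Car8 and Ctla2b (0.18 and 0.18), and those of Icos were Gpr171 and Iigp1. Ctla4 lay nearest to Flvcr1 and Cysltr2, Pdcd1 to Trpm4 and Slc6a6, Cd274 to Stard10 and Tnfrsf9, and Btla to Senp7 and Hnrnph3. Some of these genes had a WT mean under the filter and passed it only through the KO arrays. They were Car8 (1.6 and 4.15 on the WT arrays), Stfa3 (6.63 and 44.5), Slc15a1 (25.5 and 33.2) and Cysltr2 (25.3 and 29.8). With 4 arrays, a short distance says only that the values run alike on these arrays.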

How the data were processed

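Signals were deposited by the authors as linear intensity values per probe set, in a column for each array, and the submitters' processing notes name MAS5. Its version and settings are not given in the sources used here. With 2% of values trimmed at each end the mean signal was 500 on all 4 arrays, a scaling that removes differences in total RNA, and dim MAS5 signals vary strongly between arrays. Gene names came from the platform annotation, in which 34958 probe sets name a gene alone.

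The 64 control probe sets were removed, values were taken as log2(signal + 16), and the dimmest 40% by mean were dropped, leaving 27022 probe sets. The genotypes were compared in limma 3.58.1 (R 4.3.3; lmFit, eBayes with intensity trend, two-sided, Benjamini-Hochberg over all tested probe sets, threshold 0.05), with 2 residual and 6.41 prior degrees of freedom. The brightest probe set stood for each gene. The fit was checked on simulated data. The median log2 difference of all probe sets was -0.079 and was not subtracted.

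Members and lists were chosen with earlier results of these data known. Named were all members, up to 4 called genes of largest size per pathway list, a few set genes, the largest marker per list, and the 2 nearest profiles per member. Ptpn6, Ptpn11, Thbd, Proc, Nr4a3, Nr4a1, Nfatc1, Tox, Egr2, Irf4, Batf, Nfatc2, Nr4a2, Cdh5, Tek, Vwf, Ms4a1, Flt3, Tyrobp, Cd5 and the genes beside the members were added after their values were seen. So were Il2ra, Ikzf2, Il27ra, Csf1r and Cma1. Alternatives were pseudocounts of 1 and 64, other filters, quantile or median scaling, no trend, a replicate block, each array left out, and means over probe sets. A further alternative left out all probe sets with the suffixes _s_at, _x_at or _a_at.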

Additional observations from a re-analysis of the deposited data

How the results depend on the processing

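The number of arrays limits all values. Of the 9 measured members, every one kept the sign of its difference under each alternative in which it was measured, and 6 to 8 were called higher. On all 4 arrays the alternatives called 727 to 2412 of all probe sets higher, against 2131 (7.89%) in the main fit. The list was chosen on this contrast, so nothing is read from the kept signs or the member counts. Without the probe sets of suffixes _s_at, _x_at or _a_at the median difference of the measured members was 1.50, since Procr then drops out and Cd160 is read from another probe set. In that fit 13 markers of other cell types were called higher in place of 19, and 25 pathway genes in place of 28. With no intensity trend the fit called 1183 probe sets in all, 727 higher and 456 lower, with 17 pathway genes higher and 2 lower and 11 markers of other cell types higher. Leaving out each array in turn gave 2786 to 4387 called probe sets (1611 to 1817 higher, 1163 to 2570 lower), 6 to 11 pathway genes lower and a median member difference of 1.55 to 1.86, the lowest probe set counts being those without WT array 2 and, at 3032, without WT array 1. Of the 40 called pathway genes 21 lost the call under at least 1 alternative, 9 of them only without the intensity trend, and 0 reversed. The calls of Foxp3, Cd200 and Ptms were lost without that trend. The array numbers are shared by the groups, but with 2 pairs they do not establish a pairing (correlation of deviations 0.0103), and with the replicate block 5382 probe sets were called, with 8 members higher.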

Other observations

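Of the 18 protein-coding genes that lie directly beside a listed member in the RefSeq order, 13 were tested, and 3 rose in KO cells while 0 fell (limma; 1 at an unadjusted p under 0.05), against 10.5% higher and 9.87% lower over all tested genes. Besides Pdcd1lg2, these were Cd200, which lies beside Btla and encodes the ligand of CD200R1, and the parathymosin gene Ptms, which lies beside Lag3. Cd200 was at 1106 and 1544 on the WT arrays, against 2175 and 3224 on the KO arrays (log2 difference 1.01 ± 0.21, adjusted p = 0.0137), in the opposite direction to Btla. Ptms was at 649 and 545 against 1141 and 1211 (0.96 ± 0.15, adjusted p = 0.00329). On the other side of Lag3, Cd4 was at 786 and 662 on the WT arrays, against 517 and 631 on the KO arrays and did not pass (-0.33 ± 0.17, adjusted p = 0.231). Both genes beside Procr, Edem2 (0.29 ± 0.12) and Mmp24 (-0.12 ± 0.29), did not pass.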
